A study of Mus musculus with 4 samples.

Results

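Splenic macrophage and complement C1q genes were followed in RNA from CD8αβ+ IELs and CD8αβ+ SPLs. The 10 genes (C1qa, C1qb, C1qc, Csf1r, Cd68, Marco, Cd5l, Hmox1, Slc40a1 and Vcam1) were chosen by name, and all non-control probes that carry one of these symbols were taken. They are 10 of 27029 gene symbols on the arrays, and 15 of 41174 probes measured them. CD8αβ+ IELs came from small intestinal epithelium and CD8αβ+ SPLs from the spleen of wild-type male mice aged 8 to 12 weeks, with 2 samples per group, no treatment, and several mice pooled in each sample. The sort took CD45+ CD3+ CD8α+ CD8β+ TCRβ+ cells, so macrophages were not the cells aimed at in either organ.

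Red pulp macrophages of the spleen engulf aged red blood cells, break down their haem and return the iron to the blood. They depend on signals through the receptor for CSF1 and on the transcription factor SpiC. C1q, the recognition unit of the classical complement pathway, is built from A, B and C chains, and tissue macrophages are a main source of it. Since the RNA is from bulk samples, fewer cells of a type and less RNA per cell cannot be told apart.

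The C1qa, C1qb and C1qc probes lay next to each other on the minus strand of chromosome 4, within 15891 bases of mm9, the build of the arrays' annotation. The C1qa probe was at chr4:136452409-136452468, the C1qc probe at chr4:136445766-136445825 and the C1qb probe at chr4:136436578-136436637. The 60 bases that were hybridized for the A and B chains are shown because the A and B chains differed in the size of the step between the lowest array and the others.
C1qa probe: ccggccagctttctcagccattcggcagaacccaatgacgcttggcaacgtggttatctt
C1qb probe: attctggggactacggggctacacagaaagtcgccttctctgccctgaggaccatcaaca

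The promoters of 5 of the 10 genes were matched by symbol in RefSeq sequences of GRCm38.p6, each from 250 bases before to 50 bases after the annotated start. They are those of C1qb, C1qc, Cd5l, Marco and Cd68. A pair of motifs was searched on both strands. GAGGAA is the core of sites bound by PU.1 and its relative SpiC, which macrophages use, and it was found in 5 of these 5 promoters and in 28.3% of all 32851 promoters of the same length. TGACNNNGC is the core of the elements through which haem and oxidative stress act on genes, and it was found in 1 of the 5, C1qb, and in 12.4% of all promoters. A match describes the letters only and is not a bound site. The 250 bases before the start of C1qb, C1qc and Cd5l, which had the same order of samples, are shown with the GAGGAA motif in capitals (TTCCTC where it lies on the other strand). Marco, not shown, had that order as well, and Cd68 held the motif without that order. The motif began 30 bases before the start in C1qb, 66 in Cd5l and 193 in C1qc, and in C1qb it did not overlap TGACNNNGC, which began 103 bases before the start.
C1qb promoter (chr4:136886201-136886450, minus strand): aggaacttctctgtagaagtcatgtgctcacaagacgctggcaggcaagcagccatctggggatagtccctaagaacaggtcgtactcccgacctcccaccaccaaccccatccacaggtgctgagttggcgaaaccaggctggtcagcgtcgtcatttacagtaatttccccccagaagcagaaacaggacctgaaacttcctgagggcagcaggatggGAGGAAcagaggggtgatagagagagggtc
C1qc promoter (chr4:136892915-136893164, minus strand): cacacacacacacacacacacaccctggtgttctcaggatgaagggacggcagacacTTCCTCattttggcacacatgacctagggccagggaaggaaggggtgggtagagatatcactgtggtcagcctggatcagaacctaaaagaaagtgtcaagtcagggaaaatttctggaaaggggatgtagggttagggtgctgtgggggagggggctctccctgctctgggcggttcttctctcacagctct
Cd5l promoter (chr3:87357631-87357880, plus strand): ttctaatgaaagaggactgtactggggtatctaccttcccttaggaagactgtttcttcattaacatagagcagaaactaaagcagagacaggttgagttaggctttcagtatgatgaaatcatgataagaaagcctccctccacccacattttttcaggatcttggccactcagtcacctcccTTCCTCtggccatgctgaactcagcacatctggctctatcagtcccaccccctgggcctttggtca

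The arrays were 1-color Agilent arrays with 1 sample each. A level here is the log2 of the processed intensity minus the array's 75th percentile, so that 0 is that percentile, 1 unit is a 2-fold step and negative levels lie under it. Slide 1 held IEL replicate 1 together with SPL replicate 2, and slide 2 held the other two samples. The arrays did not separate by group. Over tested probes, the correlation of IEL replicate 2 was higher with SPL replicate 1 (Pearson's r = 0.9915) than with IEL replicate 1 (r = 0.9464), so the fits of the 10 genes are also given without either of these IEL samples. All 5 T cell markers (Cd3e, Cd3d, Cd3g, Cd8a and Cd8b1) were well above background on the 4 arrays, at levels between 2.89 and 8.11. Between 63.6% and 69.6% of probes were well above background, and the repeat spots of a probe varied with an SD between 0.0549 and 0.0794 log2 units on 1 array.

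The main pattern was shared by most of the 10 genes. They were low on the array of IEL replicate 1 and high on the other 3 arrays, including the second CD8αβ+ IEL sample. In 8 of 10 genes the order was SPL replicate 1, IEL replicate 2, SPL replicate 2 and IEL replicate 1, from the highest to the lowest. Levels of CD8αβ+ IELs and CD8αβ+ SPLs overlapped in 10 of 10 genes, and IEL replicate 2 was above SPL replicate 2 in 10 of 10. Among all 27911 tested probes, 24.6% had both CD8αβ+ IEL samples below both CD8αβ+ SPL samples, against 0 of the 10 genes. Another 6812 probes had both above, so overlap was common among all probes too. The shares of all probes with the order of samples given above, and with IEL replicate 2 above SPL replicate 2, were not counted. Neither count can therefore be read as particular to the 10 genes.

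**Figure D1:**
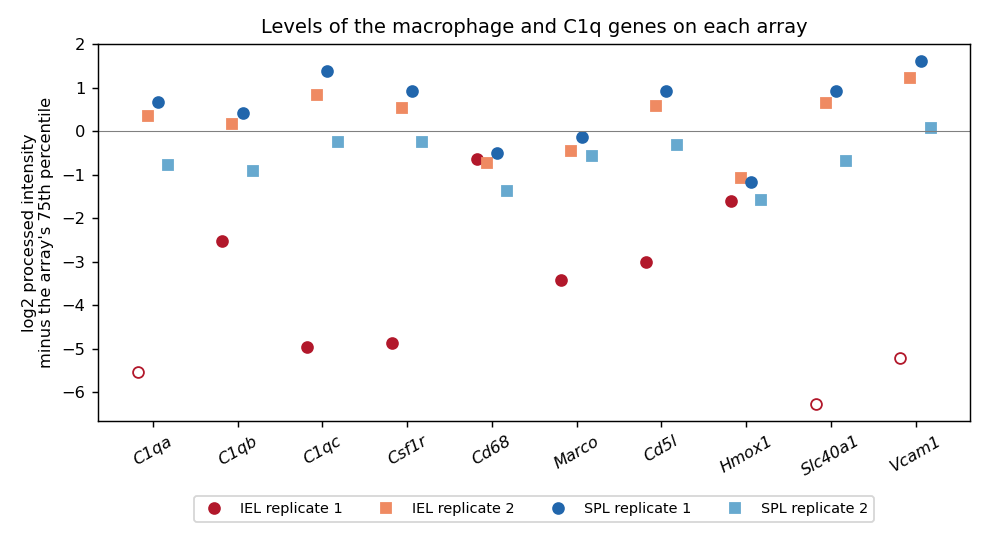
Levels of the 10 genes (x axis) on the 4 arrays, as log2 processed intensity minus the array's 75th percentile (y axis). Each point is 1 array, and open points were not well above background. IEL replicate 1 sits between -6.27 and -2.52 for 8 genes, whereas the other 3 arrays sit between -1.59 and 1.61 for all 10.

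The A chain gene C1qa had a level of -5.54 in IEL replicate 1, 0.36 in IEL replicate 2, 0.66 in SPL replicate 1 and -0.78 in SPL replicate 2. Here IEL replicate 1 was not well above background, and the other 3 samples were bright, with IEL replicate 2 between the spleen samples. For C1qc, the C chain, the same samples were at -4.97, 0.83, 1.39 and -0.25. For C1qb, the B chain, they were at -2.52, 0.17, 0.41 and -0.91. Thus the 3 chains had the same order of samples, but C1qb stood less far down in IEL replicate 1. Its difference between IEL replicate 1 and SPL replicate 2 was -1.61, against -4.72 for C1qc. That of C1qa rests on a signal not well above background and is given with the within-slide values.

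In the fit over all probes, CD8αβ+ IELs had a mean C1qa level of -2.59 ± 4.17 and CD8αβ+ SPLs one of -0.06 ± 1.02 (SD, n = 2 each). The log2 fold change of C1qa was -2.53 ± 2.07 (SE; limma adjusted p = 0.661). It was -0.92 ± 1.04 for C1qb (limma adjusted p = 0.732) and -2.64 ± 2.05 for C1qc (limma adjusted p = 0.651). None of these differences was larger than the spread between replicates, which lay mostly within CD8αβ+ IELs.

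Csf1r encodes the receptor for CSF1 and IL-34, on which macrophages depend. Its brightest probe was at -4.87 in IEL replicate 1, 0.53 in IEL replicate 2, 0.93 in SPL replicate 1 and -0.25 in SPL replicate 2. Both other Csf1r probes had the same highest and lowest samples but differed in size. The log2 fold change was -2.51 ± 1.89 on the brightest probe (SE; limma adjusted p = 0.645), -0.36 ± 0.52 on the second and -1.45 ± 1.37 on the dimmest, which was not well above background in IEL replicate 1.

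Vcam1 encodes an adhesion molecule that binds integrin α4β1 and is carried by red pulp macrophages as well as by endothelium. Its brightest probe had levels of -5.21 in IEL replicate 1, 1.21 in IEL replicate 2, 1.61 in SPL replicate 1 and 0.07 in SPL replicate 2. IEL replicate 1 was not well above background, and the second tested probe ranked the samples in the same order, with levels of -7.67, -3.38, -3.13 and -4.64. The third Vcam1 probe stayed close to background throughout and was therefore not tested. The fold change was -2.84 ± 2.25 on the brightest probe and -1.64 ± 1.56 on the second (SE; limma adjusted p = 0.656 and 0.691). Of the endothelial genes, Cdh5 and Emcn were too dim to be tested, whereas Kdr and Stab2 were well above background on the 4 arrays, with log2 fold changes of 0.04 ± 0.32 and -0.05 ± 0.31 (SE). Pecam1, which leukocytes also carry, was at -3.18 in IEL replicate 1 and between -0.33 and 0.09 in the other samples (-1.79 ± 0.99). Tek was lowest in IEL replicate 1 too, at -5.80, where it was not well above background (-0.35 ± 0.58).

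Marco encodes a receptor for bacteria on marginal zone macrophages, and Cd5l a secreted protein of tissue macrophages, both with scavenger receptor domains. Marco was at -3.43 in IEL replicate 1, -0.45 in IEL replicate 2, -0.13 in SPL replicate 1 and -0.57 in SPL replicate 2. It differed from the C1q genes in that both spleen samples lay close together (SD 0.31, n = 2). Cd5l was at -3.02, 0.58, 0.93 and -0.32 in the same samples, with the order seen for C1q. Log2 fold changes were -1.59 ± 1.05 for Marco and -1.52 ± 1.31 for Cd5l (SE; limma adjusted p = 0.634 and 0.670).

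The genes for handling haem iron did not move together. Slc40a1 encodes ferroportin, the only known exporter of iron from cells. It was at -6.27 in IEL replicate 1, 0.64 in IEL replicate 2, 0.93 in SPL replicate 1 and -0.68 in SPL replicate 2 (log2 fold change -2.94 ± 2.42, SE; limma adjusted p = 0.662). IEL replicate 1 was not well above background, and the other 3 samples were. Hmox1 encodes the enzyme that breaks down haem and is induced by stress in many cell types. It was at -1.61 in IEL replicate 1, -1.08 in IEL replicate 2, -1.16 in SPL replicate 1 and -1.59 in SPL replicate 2. No sample stood apart, and the log2 fold change was 0.03 ± 0.32 (SE; limma adjusted p = 0.973), with a sign that turned to -0.02 with scaling by the median and to -0.31 with normexp background correction. The second Hmox1 probe stayed close to background on the 4 arrays and was not tested.

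Cd68 encodes a lysosomal protein of macrophages that other cells also express at lower levels. Its levels of -0.65 in IEL replicate 1, -0.73 in IEL replicate 2, -0.51 in SPL replicate 1 and -1.38 in SPL replicate 2 put SPL replicate 2 lowest, whereas IEL replicate 1 was lowest in the other 9 genes, by a small margin for Hmox1. The log2 fold change was 0.26 ± 0.37 (SE; limma adjusted p = 0.787), and its sign turned to -0.06 with normexp background correction. Thus Cd68 and Hmox1 had levels on the array of IEL replicate 1 like those on the other arrays, where the 8 remaining genes were lowest.

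Across the table, 0 of 27911 tested probes (0%) passed a limma adjusted p of 0.05, and 0 of the 10 genes did. At an unadjusted p under 0.05, limma found 307 probes lower in CD8αβ+ IELs (1.1%) and the unpaired test named in the study's methods 349 (1.25%), with 0 of the 10 genes by either. In both directions these counts were 1600 and 819, and 0 probes passed after adjustment of the unpaired test. The smallest limma adjusted p was 0.634, and a two-sided exact permutation test of 2 against 2 samples cannot go below 0.33. The median log2 fold change was -2.05 over the 10 genes and -0.00072 over all tested probes. With normexp background correction both were closer, at -0.42 and -0.38. Nothing in the labels says that the 2 samples of a group came from separate experiments, and p-values then measure only the spread between these samples.

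Within slides, the comparison gave 2 different values. On slide 1, IEL replicate 1 was at least 2-fold below SPL replicate 2 in 8 of 10 genes, as were 13.7% of all tested probes. The median over the 10 genes was -3.74, and the largest difference that was measured on both arrays was 26.4-fold, for C1qc. Where IEL replicate 1 was not well above background, only a rough value can be given. It was taken against the higher of its own signal and the lowest signal well above background on that array. SPL replicate 2 was then about 27.1-fold higher for C1qa, 32.0-fold for Slc40a1 and 38.8-fold for Vcam1. For C1qa and Vcam1 this is the plain ratio to the signal of IEL replicate 1. Their signals (-5.54 and -5.21) lay above that lowest signal (-5.68) and still were not well above background. These values are therefore not firm limits.

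On slide 2, IEL replicate 2 was at least 2-fold below SPL replicate 1 in 0 of 10 genes, as were 0.731% of all tested probes. Differences ran from -0.55 for C1qc to 0.08 for Hmox1, with a median of -0.31. They were below 0 in 9 of 10 genes and in 13881 of all 27911 tested probes. Each slide holds 1 array per group, so the within-slide differences have no replicate check and carry no test.

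**Figure D2:**
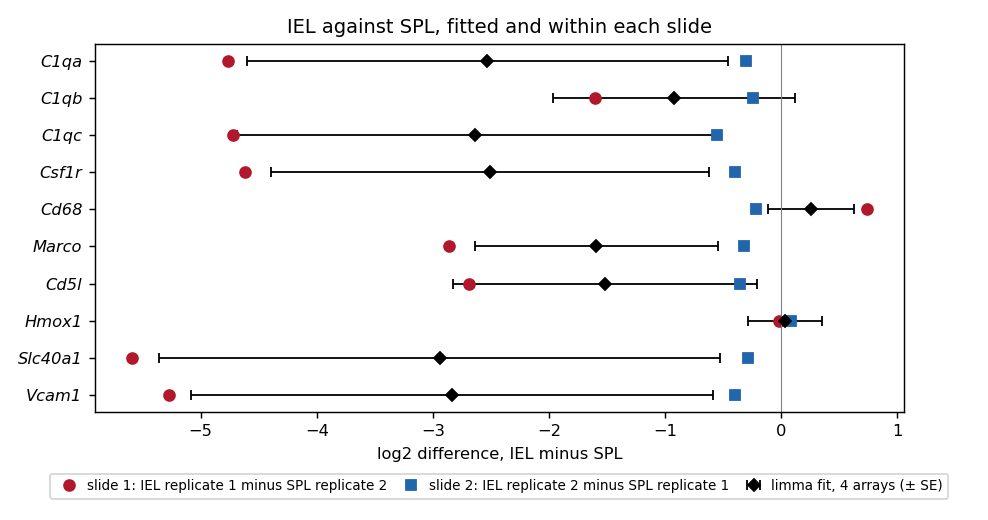
Log2 difference of CD8αβ+ IELs minus CD8αβ+ SPLs (x axis) for the 10 genes (y axis), with the limma fit over 4 arrays (diamonds, bars ± SE) and the difference within slide 1 (circles) and slide 2 (squares). Slide 1 differences reach -5.59 for Slc40a1, where IEL replicate 1 was not well above background, whereas slide 2 differences stay between -0.55 and 0.08.

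The result turned on which CD8αβ+ IEL sample was kept. Without IEL replicate 2, 7 of the 10 genes were lower in the remaining CD8αβ+ IEL sample at a limma adjusted p under 0.05, against 11% of all tested probes (3059 lower and 2382 higher). The 7 were C1qa, C1qc, Csf1r, Marco, Cd5l, Slc40a1 and Vcam1, with log2 fold changes between -6.40 and -3.09. In that fit the lone sample is assumed to vary like the CD8αβ+ SPLs. For C1qa, Slc40a1 and Vcam1 its signal was not well above background, so their fold changes rest on a value near background. Without IEL replicate 1, the median over the 10 genes was 0.29 instead of -2.05, with 9 of 10 above 0 and 0 called.

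The 2 spleen samples differed as well. SPL replicate 2 was below SPL replicate 1 in 10 of 10 genes, by a median of -1.29, and at least 2-fold below it in 7 of 10, against 2.68% of all tested probes. The 7 were C1qa, C1qb, C1qc, Csf1r, Cd5l, Slc40a1 and Vcam1, with differences between -1.63 and -1.18. Marco (-0.44), Hmox1 (-0.43) and Cd68 (-0.87) differed less. The median difference between the same 2 arrays was 0.02 over all tested probes.

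Other red pulp macrophage genes shared this step. SPL replicate 2 was below SPL replicate 1 in 8 of 8 tested genes of that list, with differences from -1.62 for Mrc1, the mannose receptor, to -0.94 for Spic. Among all 27911 tested probes, 13291 were lower in SPL replicate 2. Intestinal epithelium genes had a step at least as large, with 7 of 8 genes lower in SPL replicate 2, 4 of them at least 2-fold, and a median of -1.54. The median was -1.13 over 5 intestinal macrophage genes, which include red pulp genes such as Mrc1 and Emr1. Further macrophage lists had smaller steps. The median was -0.29 for 5 marginal zone and metallophilic genes and -0.23 for 10 genes of macrophage transcription and the CSF1 pathway. It was -0.45 for 14 genes of Fc receptors, uptake of dying cells and lysosomes, 3 of them at least 2-fold lower. In 4 lists of other cells the steps were also smaller than in the red pulp macrophage genes. The median difference was -0.06 for 9 neutrophil and monocyte genes, 0.11 for 7 erythroid genes, -0.46 for 7 B cell genes and -0.08 for 9 T cell genes. The lowest difference in these 4 lists was -0.65, for Cd79a of B cells. Of the 9 neutrophil and monocyte genes, 5 were lower in SPL replicate 2 than in SPL replicate 1, as were 2 of the 7 erythroid genes.

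**Figure D3:**
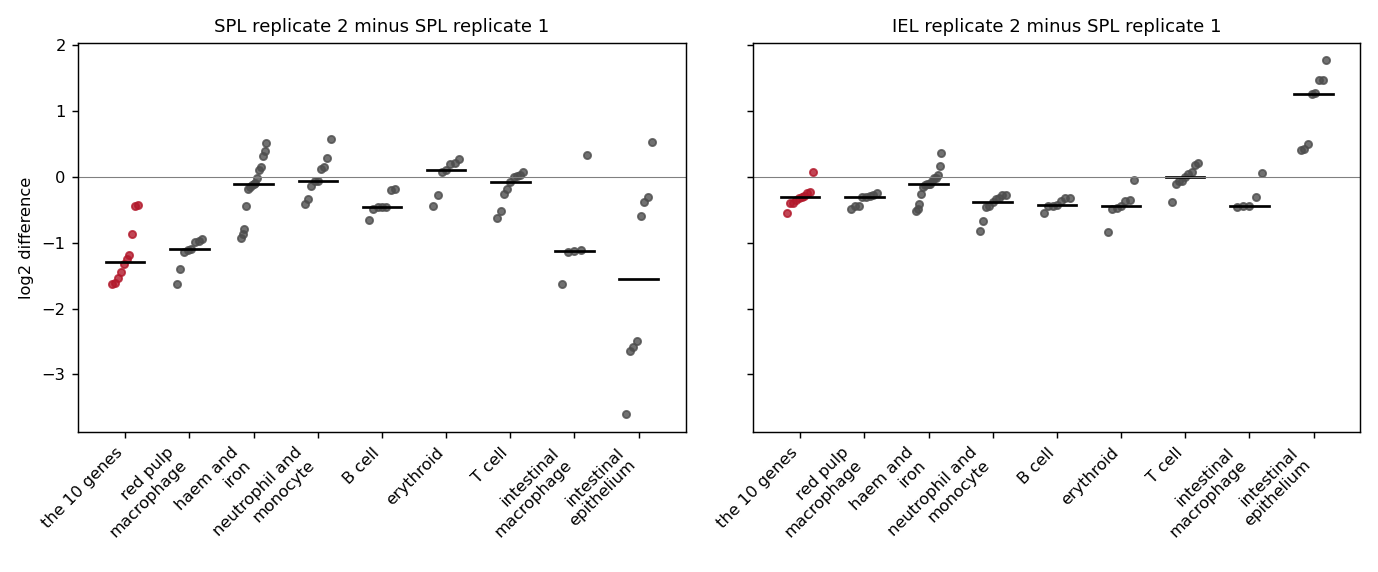
Log2 differences between 2 arrays (y axis) for the tested genes of 9 lists (x axis), with SPL replicate 2 minus SPL replicate 1 on the left and IEL replicate 2 minus SPL replicate 1 on the right. Each point is 1 gene and bars are list medians, which on the left are -1.29 for the 10 genes, -1.10 for red pulp macrophage, -1.13 for intestinal macrophage and -1.54 for intestinal epithelium genes, and between -0.46 and 0.11 for the other 5 lists.

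Overlap of the groups was counted for blood cell genes as well. Both CD8αβ+ IEL samples were below both CD8αβ+ SPL samples in 7 of 7 erythroid genes and 7 of 9 neutrophil and monocyte genes. The same held for 2 of 7 B cell genes and 3 of 9 T cell genes. It held for 0 of the 10 genes, 0 of 8 red pulp macrophage genes and 0 of 6 dendritic cell genes, against 24.6% of all tested probes. Another 4 T cell genes had both CD8αβ+ IEL samples above both CD8αβ+ SPL samples. Yet the steps from SPL replicate 1 to IEL replicate 2 were of like size, with medians of -0.44 for erythroid, -0.37 for neutrophil and monocyte, -0.42 for B cell and -0.31 for the 10 genes. On the array of IEL replicate 1 these lists were low too. The summed linear level of the list, in multiples of the array's 75th percentile, was 4.26 for neutrophil and monocyte genes in IEL replicate 1, against 159.9, 200.1 and 167.0 in IEL replicate 2, SPL replicate 1 and SPL replicate 2. It was 3.63, 20.5, 26.2 and 20.01 for B cell genes, 1.19, 75.05, 99.1 and 115.8 for erythroid genes, and 1.49, 12.8, 16.4 and 6.66 for the 10 genes. T cell genes summed to 639.1, 691.5, 695.5 and 669.3. Intestinal epithelium genes summed to 16.4 in IEL replicate 1, 4.07 in IEL replicate 2, 1.69 in SPL replicate 1 and 0.466 in SPL replicate 2. What part any of these cell types had in the differences of the 10 genes was not tested.

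Spic, the transcription factor that red pulp macrophages need, was at -6.02 in IEL replicate 1, -0.37 in IEL replicate 2, -0.09 in SPL replicate 1 and -1.03 in SPL replicate 2. Only IEL replicate 1 was low, and it was not well above background. All 8 tested red pulp macrophage genes had a lower mean in CD8αβ+ IELs and 0 passed the test, from -2.64 ± 1.96 for Spic to -0.31 ± 0.71 for Axl, a receptor for dying cells (log2 fold change ± SE). The ninth gene, Siglece, was not tested. The median was -1.85.

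Of 6 other genes of marginal zone and metallophilic macrophages, 5 were tested and 0 passed. The fold change ran from -1.52 ± 1.20 for Timd4, a receptor for dying cells, to 1.01 ± 0.53 for Cd209b, a lectin of marginal zone macrophages, which was highest in IEL replicate 1 (-3.66) and at -4.94, -5.63 and -5.00 in the other samples. Siglec1, the marker of metallophilic macrophages, was between -5.10 and -4.44 in the 4 samples, and Msr1 was not tested. Timd4 was at -7.59 in IEL replicate 1 and between -4.54 and -4.13 in the other samples, and Nr1h3, a nuclear receptor, was at -3.27 against -1.65 to -0.93. Thus Timd4 and Nr1h3 were lowest in IEL replicate 1, as the C1q genes were, whereas Cd209b and Siglec1 were not. Timd4 was not well above background in IEL replicate 1, so its level there and its fold change rest on a background value.

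Among macrophage transcription factors and the CSF1 pathway, 10 of 10 genes were tested and 0 passed. Csf1, a ligand of the Csf1r receptor, had the lowest log2 fold change (-2.40 ± 1.23) and Cebpb, a transcription factor of many cell types, the highest (0.80 ± 0.49, SE). Csf1 was at -6.41 in IEL replicate 1, -2.86 in IEL replicate 2, -2.45 in SPL replicate 1 and -2.02 in SPL replicate 2, so that SPL replicate 2 was highest for the ligand and not for the receptor. Il34, the other ligand, was between -3.86 and -3.14 in the 4 samples. Spi1, which encodes PU.1 and is named Sfpi1 on the arrays, was at -6.10, -4.45, -4.31 and -4.69. Csf1 and Spi1 were not well above background in IEL replicate 1, so their levels there and their fold changes rest on background values.

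Of 21 other complement genes, 13 were tested, 11 had a lower and 2 a higher mean in CD8αβ+ IELs, and 0 passed. C1ra and C1s, the proteases that act with C1q, and the C1 inhibitor Serping1 were not well above background on enough arrays to be tested. The lowest log2 fold change was that of Cr2, a complement receptor of B cells (-3.50 ± 2.24), and the highest that of Itgax, a chain of complement receptor 4 that intestinal T cells also carry (1.65 ± 0.61, SE). Cr2 was not well above background in IEL replicate 1. C3, the central component, was at -2.71 in IEL replicate 1, -0.12 in IEL replicate 2, 0.19 in SPL replicate 1 and 0.16 in SPL replicate 2. Its spleen samples were nearly equal, unlike those of the C1q genes. Over the list, the median step from SPL replicate 1 to SPL replicate 2 was -0.15, and 1 of 13 genes was at least 2-fold lower.

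All 14 genes of Fc receptors, uptake of dying cells and lysosomes were tested, with 11 lower, 3 higher and 0 past the threshold. The lowest log2 fold change was that of Grn, progranulin (-4.83 ± 1.29, SE). It came from 1 probe at 0.73, 1.13, 3.89 and 7.63 in IEL replicates 1 and 2 and SPL replicates 1 and 2, and the second Grn probe, at -0.07, 0.66, 0.76 and 0.24, did not show it. The highest was that of Ctsb, a lysosomal protease (0.31 ± 0.26). Fcgr1, a high affinity Fc receptor of macrophages, was at -5.99, -1.74, -1.26 and -2.27, with the order of the C1q genes. It was not well above background in IEL replicate 1.

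Of 15 other genes for haem and iron, 15 were tested, 9 were lower, 6 higher and 0 past the threshold, with a median of -0.13. Slc11a1, an iron transporter of phagosomes, had the lowest log2 fold change (-2.34 ± 1.73) and Nfe2l2, the factor that acts on antioxidant elements, the highest (0.35 ± 0.28, SE). Slc11a1 was at -5.76 in IEL replicate 1, -0.75 in IEL replicate 2, -0.49 in SPL replicate 1 and -1.35 in SPL replicate 2, which is the order of Slc40a1. It was not well above background in IEL replicate 1, so its fold change rests on a background value. The ferritin heavy chain gene Fth1 was between 6.99 and 7.41 and the haem-binding repressor Bach1 between 1.87 and 2.28, so neither had the low value of IEL replicate 1. Of the enterocyte genes for iron uptake, 3 of 4 were tested and 0 passed, from -1.59 ± 0.30 for Cybrd1, an iron reductase, to -1.08 ± 0.71 for Slc11a2, the transporter of ferrous iron. Cybrd1 and Hamp were not well above background in either CD8αβ+ IEL sample, so their fold changes and SE rest on background values.

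Of 10 genes of VCAM1 partners and vessels, 8 were tested and 0 passed. Itga4, the α4 chain that binds VCAM1, was between 3.91 and 4.15 in the 4 samples, and Itgb1 was between -1.38 and -0.07. The lowest log2 fold change was that of Pecam1, an adhesion molecule of endothelium and leukocytes (-1.79 ± 0.99), and the highest that of Madcam1, an adhesion molecule of gut vessels (0.87 ± 0.62, SE).

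Of the lists for other cells, none had a gene past the threshold. Their lowest and highest log2 fold changes ± SE were -4.44 ± 2.86 for Ms4a1 and -0.96 ± 0.58 for Blk among 7 B cell genes. They were -4.97 ± 2.98 for S100a8 and -0.65 ± 0.44 for Ccr2 among 9 neutrophil and monocyte genes, and -3.60 ± 2.03 for Hba-a1 and -0.62 ± 0.24 for Klf1 among 7 erythroid genes. T cell genes ran from -1.13 ± 0.55 for Cd2 to 0.52 ± 0.31 for Cd3g. Dendritic cell genes ran from -0.51 ± 0.83 for Clec9a to 2.41 ± 0.68 for Itgae, the integrin chain by which IELs bind epithelium. Intestinal epithelium genes ran from -0.14 ± 0.35 for Lct to 4.42 ± 1.44 for Krt8, and intestinal macrophage genes from -2.31 ± 1.91 for Mrc1 to 0.03 ± 0.27 for Cd209f. Ms4a1, S100a8, Clec9a, Mrc1 and Cd209f were not well above background in IEL replicate 1.

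The genes with the profile nearest to C1q were sought among all other tested probes with a symbol. Likeness was the root mean square distance over the 4 arrays between a probe's levels, centred on its own mean, and the mean centred levels of C1qa, C1qb and C1qc. By this measure the nearest 5 were Fcna (0.0757), Bcl11a (0.0818), Emr1 (0.174), Kcnj10 (0.183) and Treml4 (0.199 log2 units). Fcna encodes ficolin-A, Bcl11a a transcription factor, Emr1 an adhesion receptor that marks macrophages, Kcnj10 a potassium channel and Treml4 a receptor of myeloid cells. Fcna was at -4.77 in IEL replicate 1, -0.18 in IEL replicate 2, 0.24 in SPL replicate 1 and -1.17 in SPL replicate 2. Its order of samples was that of the C1q genes, and all of the nearest 5 had it, Bcl11a and Kcnj10 included. They were picked for likeness to that profile, so the shared order is not a separate result. Bcl11a and Kcnj10, like C1qa itself, were not well above background in IEL replicate 1. Their distances rest on a value near background, and the ranking among the 5 should not be read. The distance of the C1q genes from their own mean was 0.464, 0.930 and 0.470 for C1qa, C1qb and C1qc, and of the 7 other genes Csf1r was nearest (0.337) and Cd68 farthest (2.08). These arrays are few points for a profile, and the low value of IEL replicate 1 weighs most in the distance.

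**Figure D4:**
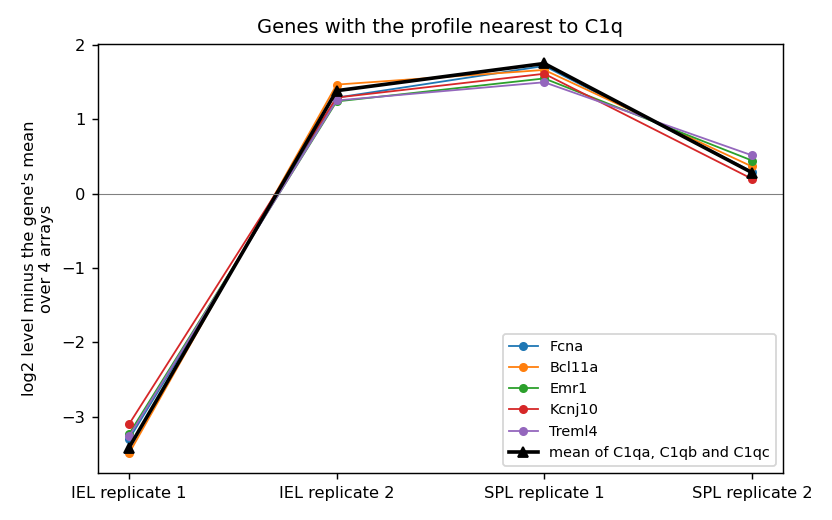
Levels minus each gene's mean over the 4 arrays (y axis, log2) on the 4 arrays (x axis) for the 5 nearest genes and the mean of C1qa, C1qb and C1qc (triangles). The lines join the values of a gene and mark no order of arrays, and all 6 profiles are lowest in IEL replicate 1 and highest in SPL replicate 1.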

How the data were processed

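RNA levels in both cell populations were read on 1-color Agilent arrays. The deposited scanner output of Feature Extraction 10.7.3.1 gives each spot a background-subtracted intensity with no normalization between arrays. Deposited log2 values of the authors, with arrays equalized by quantiles, served as an alternative. The deposited files give no extraction or sorting date, and the methods of the study name another chip type.

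The log2 processed intensity was scaled by each array's 75th percentile over 43379 non-control spots (311.9 and 434.8 units for IEL replicates 1 and 2, 479.4 and 604.7 for SPL replicates 1 and 2). Marked outlier spots were dropped, and spots of the same probe were averaged, which gave 41174 probes. Tested probes (27911) had to be well above background in both samples of 1 group or the other. No spot was saturated (0 on each array). The number of arrays limits the precision.

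CD8αβ+ IELs were compared with CD8αβ+ SPLs in limma 3.58.1 under R 4.3.3 (lmFit and eBayes, two-sided, no block, Benjamini-Hochberg threshold 0.05 over all tested probes). The fit was also run on simulated data. Replicates there varied far less than the CD8αβ+ IEL samples did in most of the 10 genes. That run therefore does not tell how the fit performs on these samples. A gene stands for its tested probe with the highest mean level. Named genes are all probes of the 10 genes, the lowest and highest log2 fold change of each list, some of the planned cell type markers and the 5 nearest profiles. Genes outside this rule (Il34, Spi1, C3, Fth1, Bach1, Itga4, Itgb1, Nr1h3, Kdr, Stab2, Tek, Emcn and the second Grn probe) were chosen after their values were seen. Siglece, Msr1, C1ra, C1s, Serping1 and Hamp, also outside it, were named for signals near background in CD8αβ+ IELs. The 10 genes and the lists were chosen with earlier results of these data known. Symbols and mm9 positions are those of the arrays, and alternatives are given in the closing section. Other experiments of the study were not analysed here.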

Additional observations from a re-analysis of the deposited data

How the results depend on the processing

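The log2 fold changes of the 10 genes were recomputed under 20 other settings, and in 13 of them every gene that was tested kept its direction and stayed past or short of the threshold. Several of these 13 could not turn a direction, because they left the fold change itself unchanged. They are the unpaired test, a trend of variance with intensity, both blocks, both other filters on dim probes and the keeping of marked spots. No probe passed the threshold except without IEL replicate 2, where 5441 probes and 7 of the 10 genes did. When 1 sample was left out, the count over all probes ranged from 0 to 5441, the count among the 10 genes from 0 to 7, and their median from -4.26 without IEL replicate 2 up to 0.29 when IEL replicate 1 was dropped. The lowest values came without IEL replicate 2 and the highest, above 0, without IEL replicate 1, and ran from -5.48 to 0.42 for C1qa, -2.27 to 0.42 for C1qb, -5.54 to 0.26 for C1qc, -5.21 to 0.19 for Csf1r, -3.32 to 0.27 for Cd5l, -6.40 to 0.52 for Slc40a1 and -6.05 to 0.37 for Vcam1. Hmox1 was at -0.23 with IEL replicate 2 left out and at 0.30 with IEL replicate 1 left out, and turned to -0.18 without SPL replicate 2, -0.023 with scaling by the median, -0.31 with normexp and -0.019 within slide 1. Cd68 was at -0.18 with SPL replicate 2 left out and at 0.69 with SPL replicate 1 left out, and turned to -0.057 with normexp and -0.22 within slide 2. The median over the 10 genes was -0.42 with normexp, which moved the median of all probes to -0.38, so that the difference between both was -0.04. With a normexp fit that left out spots over 20 units under the background around them, chosen after seeing the data, it was -1.02 against 0.15 for all probes. It was -1.52 over the 7 genes well above background on all 4 arrays, -1.56 with all tested probes of a gene averaged, and between -2.11 and -2.05 with the other scalings and the authors' values. Samples of the same replicate number did not deviate together (correlation of deviations -0.025). With the replicate block, 0 probes and 0 of the 10 genes passed and the median was -2.05, and the slide as a block also gave 0. Levels near background, as in IEL replicate 1, limit how far a decrease can be measured. The causes of these changes were not tested.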
